A study of Mus musculus with 18 samples.

Results

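Among 562 regulatory T cells sorted from mouse spleen, 73 cells carried the authors' annotation Treg_tissue-like and 17 the annotation Treg_dividing. These 90 cells, 34 and 5 in replicate 1 and 39 and 12 in replicate 2, are described here against the 213 cells annotated Treg_resting and the 142 annotated Treg_activated of the same sort. The remaining 117 sorted cells carried the annotation Treg_furtive and were not compared. The whole deposited set holds 26652 CD4 T cells of 18 samples, from WT mice and from ∆Foxp3 mice.

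The sorted regulatory T (Treg) cells came from 9-week-old male B6 mice that carry Foxp3-IRES-GFP, which makes GFP from the Foxp3 locus, crossed to CD45.1. Cells were sorted as DAPI- TCRβ+ CD4+ GFP+, and the matching conventional (Tconv) cells of the same strain, sex and age as GFP-. Unsorted CD4 T cells of a WT mouse group of the same strain, sex and age served as a further reference. These 3 groups were run with the 10x Genomics V3 kit, 2 samples each. Further V3 samples entered the fits between sorts, where they shared the filter and the estimate of spread, and give marker levels at the end: CD4 T cells of ∆Foxp3 mice (B6 Foxp3DeltaEGFPiCre x ROSA-YFP, 3 weeks, 2 samples), and the WT and ∆Foxp3 cells (3 samples each) of mixed bone marrow chimeras, irradiated recipients that had received both kinds of marrow 10 weeks before and were 16 weeks old. Foxp3 and GFP chose the cells and are therefore no result. All 562 GFP+ cells have a Treg annotation, so the annotation too depends on the sort.

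Treg cells are CD4 T cells that restrain immune responses under the transcription factor Foxp3. Many splenic Treg cells are in a resting state and recirculate through lymphoid organs, with the chemokine receptor CCR7 on their surface. After activation some take on a program known from Treg cells of skin, fat, lung and gut, with the IL-33 receptor ST2 (Il1rl1), the inhibitory lectin receptor KLRG1 and the integrin αE chain (Itgae), which pairs with β7 to bind E-cadherin on epithelia. Cells in cycle copy their DNA in S phase with the MCM helicase and nucleotide synthesis enzymes, and then make the mitotic kinases, cyclins and spindle proteins of G2 and M phase, among them the proliferation antigen Ki-67 (Mki67).

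Cells of the sorted samples were marked before pooling with hashtag antibodies, whose barcodes are printed because they are the only tag that tells the sorts apart in the pooled library. Both are 15 bases long.
Treg hashtag 7: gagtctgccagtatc
Tconv hashtag 8: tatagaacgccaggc
Tissue-like cells held a median of 52.5 and 75 UMIs of hashtag 7 in replicates 1 and 2, and dividing cells 62 and 66.5. The median for hashtag 8 was 0 in both. A UMI is a molecular barcode that counts each captured RNA molecule once. Both replicates carry the same hashtag in separate 10x channels and may be 1 mouse, so that p-values then measure only the spread between these samples, which may be technical.

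Depth differed between the clusters. The median was 5574.5 and 6425 UMIs per tissue-like cell in replicates 1 and 2, 4759 and 6092 per resting cell and 4022 and 5081 per activated cell. Dividing cells were deeper, with a median of 8325 and 16478. Summed per cluster and sample, the cells gave 200998 and 271914 UMIs for tissue-like and 40243 and 184672 for dividing cells. In the smallest sum, the 5 dividing cells of replicate 1, 1 UMI corresponds to 24.8 CPM, the unit of all levels below, which is a gene's UMIs in a sum, scaled to a total of 1000000. The median share of mitochondrial UMIs ran from 6.24 to 7.44% over the 8 sums, no sorted Treg cell was called a doublet by the authors, and no cell barcode was shared by the samples. The median doublet score was 0.179 and 0.0899 in dividing cells, and 0.0459 and 0.0440 in tissue-like cells.

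Tissue-like cells made up 10.3% of the sorted Treg cells in replicate 1 (exact 95% binomial interval 7.22 to 14.1%) and 16.9% in replicate 2 (12.3 to 22.3%). Dividing cells were 1.51% (0.492 to 3.49%) and 5.19% (2.71 to 8.90%). Resting cells were 41.4% and 32.9%, and activated cells 21.8% and 30.3%. The intervals, here and below, cover counting error only. Replicate 2 held more of each non-resting cluster described here and fewer resting cells.

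**Figure D1:**
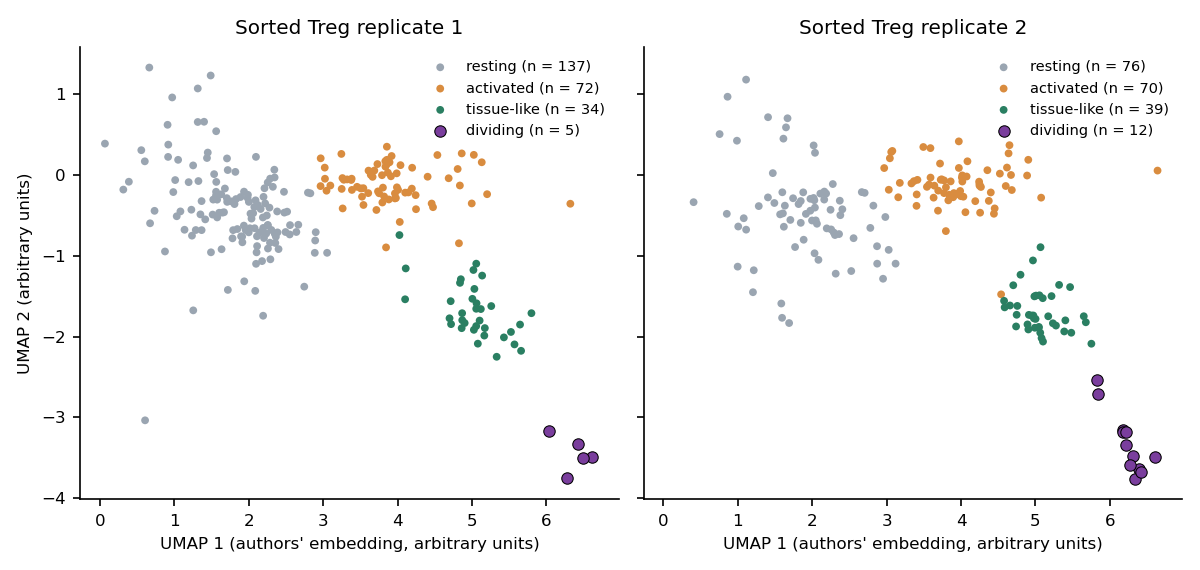
Sorted Treg cells of replicate 1 (left) and replicate 2 (right) in the authors' UMAP embedding, whose axes have arbitrary units; each point is 1 cell, coloured by the authors' cluster, with dividing cells outlined. The 34 and 39 tissue-like cells and the 5 and 12 dividing cells take up places of their own beside the resting and activated cells.

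Tissue-like cells carried the RNA of ST2, CD103, CCR2 and a large set of S100, galectin and adhesion genes, and held less RNA of some genes of resting Treg cells, among them Ccr7, Satb1 and Bcl2. A gene is called higher or lower here when it differed at least 2-fold in the fit and in each of the 2 samples. The clusters were drawn by the authors from the same genes in the same cells, so all differences between clusters are descriptions with no test. Of 5484 genes with a mean of at least 20 CPM over the 8 sums, 177 (3.23%) were higher in tissue-like than in resting cells and 163 (2.97%) lower. Without composition scaling, on plain library size, the split was 240 against 103. It turned to 121 against 158 with each cell thinned to 2000 UMIs, and to 123 against 160 without the cells that hold markers of other cell types. Against activated cells, 121 genes (2.21%) were higher and 96 (1.75%) lower, and 117 against 106 on plain library size. That split turned to 83 against 122 with thinned cells. Log2 fold changes below are fitted values with the standard error (SE) of the fit.

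The 3 surface markers of the tissue program were each higher in tissue-like than in resting cells of both samples. Il1rl1 (chromosome 1, 40429570 to 40465415, plus strand, GRCm38), which encodes ST2, was at 99.5 and 73.6 CPM in tissue-like cells of replicates 1 and 2, 15.6 and 18.0 in activated and 3.00 and 4.56 in resting cells. Itgae (chromosome 11, 73090583 to 73147446, plus strand) was at 129 and 169 in tissue-like cells, 21.9 and 12.9 in activated and 12.0 and 11.4 in resting cells. Both therefore stood above both reference clusters in each sample, by a log2 fold change of 3.07 ± 0.84 and 2.92 ± 0.46 over resting and 1.97 ± 0.54 and 2.75 ± 0.48 over activated cells.

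Klrg1 (chromosome 6, 122270596 to 122282882, minus strand) had another order. It was at 194 and 210 CPM in tissue-like cells and at 313 and 281 in activated cells, and had only 3 UMIs in all resting cells. The tissue-like to resting ratio was 74.7 (95% counting interval 24.8 to 369), while the log2 difference from activated cells was -0.51 ± 0.22. Klrg1 thus separated tissue-like from resting cells but was not higher in them than in activated cells.

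Ccr2 (chromosome 9, 124101950 to 124113557, plus strand), the receptor for the monocyte chemokine CCL2, was not detected in resting cells. It was at 448 and 382 CPM in tissue-like cells, 40.6 and 20.6 in activated cells and without a UMI in resting cells. That is at least 151-fold higher than in resting cells, taking 3 UMIs over both samples as the floor, and 3.54 ± 0.39 on the log2 scale above activated cells.

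The same 4 genes were seen in part of the cells. Il1rl1 had a UMI in 30.1% of the 73 tissue-like cells, 7.04% of activated and 1.41% of resting cells, and Itgae in 42.5%, 6.34% and 5.63%. Klrg1 had one in 30.1%, 32.4% and 0.939%, and Ccr2 in 60.3%, 5.63% and 0 of 213 resting cells, which allows a share of cells with a UMI of up to 1.41% and does not limit cells that express the gene. In 348 resting Tconv cells of the GFP- sort, at a median of 5507.5 UMIs per cell, the shares were 0 for Il1rl1, 0.575% for Klrg1 and Itgae and 1.15% for Ccr2. With each cell thinned to 2000 UMIs, the tissue-like shares were 12.3% for Il1rl1, 24.7% for Itgae, 21.9% for Klrg1 and 43.8% for Ccr2, and the resting shares 0.469%, 3.76%, 0.939% and 0%. In a sum over cells, fewer cells with a gene's RNA and less of it per cell cannot be told apart.

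Combinations of the markers varied within the cluster. Of the 73 tissue-like cells, 31 held UMIs of 1 of Il1rl1, Klrg1 and Itgae, 13 of 2 and 6 of all 3, while 23 held none. At least 1 of them was seen in 64.7% and 71.8% of the cells by replicate, and over both samples in 68.5% of tissue-like, 39.4% of activated and 6.57% of resting cells. The order of the 3 clusters in these shares was the same in each replicate.

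A list of 26 genes known from tissue Treg cells held 16 that passed the filter on low levels. Of these, 13 were higher in tissue-like than in resting cells and 1 was lower, with a median log2 difference of 2.68, against -0.016 over all 5484 genes. Against activated cells only 4 were higher and 1 lower, with a median of -0.10 against -0.023 over all genes. The 4 were Il1rl1, Itgae, Ccr2 and Rora, which encodes a nuclear receptor. Rora was at 144 and 169 CPM in tissue-like, 62.5 and 64.4 in activated and 10.5 and 11.4 in resting cells, a log2 difference of 1.25 ± 0.29 from activated cells.

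Other regulators of that list were at their highest in activated cells or did not separate the clusters. Batf, an AP-1 factor needed for tissue Treg differentiation, was at 99.5 and 173 CPM in tissue-like, 278 and 312 in activated and 48.0 and 70.7 in resting cells. Maf was at 657 and 419 in tissue-like, 791 and 603 in activated and 33.0 and 86.6 in resting cells, and Prdm1, which encodes Blimp-1, at 44.8 and 62.5, 53.1 and 72.1, and 3.00 and 4.56. Gata3, which can drive Il1rl1, was at 179 and 202 in tissue-like, 203 and 193 in activated and 88.6 and 121 in resting cells, and was called neither higher nor lower. Tnfrsf9, which encodes the costimulatory receptor 4-1BB, was the list's lower member: 49.8 and 51.5 in tissue-like cells lay below 125 and 146 in resting and 381 and 409 in activated cells.

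The chemokine receptor Cxcr3, known from type 1 responses, was at 214 and 158 CPM in tissue-like, 116 and 103 in activated and 12.0 and 13.7 in resting cells. Its log2 difference was 3.21 ± 0.44 from resting and 0.74 ± 0.26 from activated cells. The level in tissue-like cells was above that in activated cells in both samples but did not reach 2-fold in each.

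Several genes that define Treg cells of fat, skin or gut had few or no UMIs. Areg, the growth factor amphiregulin, and Ccr8, a skin and tumour Treg receptor, had 0 UMIs among 472912 in tissue-like cells, which allows a level of up to 6.34 CPM, as did Bhlhe40. Pparg, the fat Treg regulator, and the cytokine gene Il10 had 1 UMI each there. Activated cells held 4 UMIs of Areg, 10 of Ccr8, 16 of Bhlhe40 and 36 of Il10, the last all in replicate 2. These genes thus gave little or no signal in tissue-like cells at this depth.

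**Figure D2:**
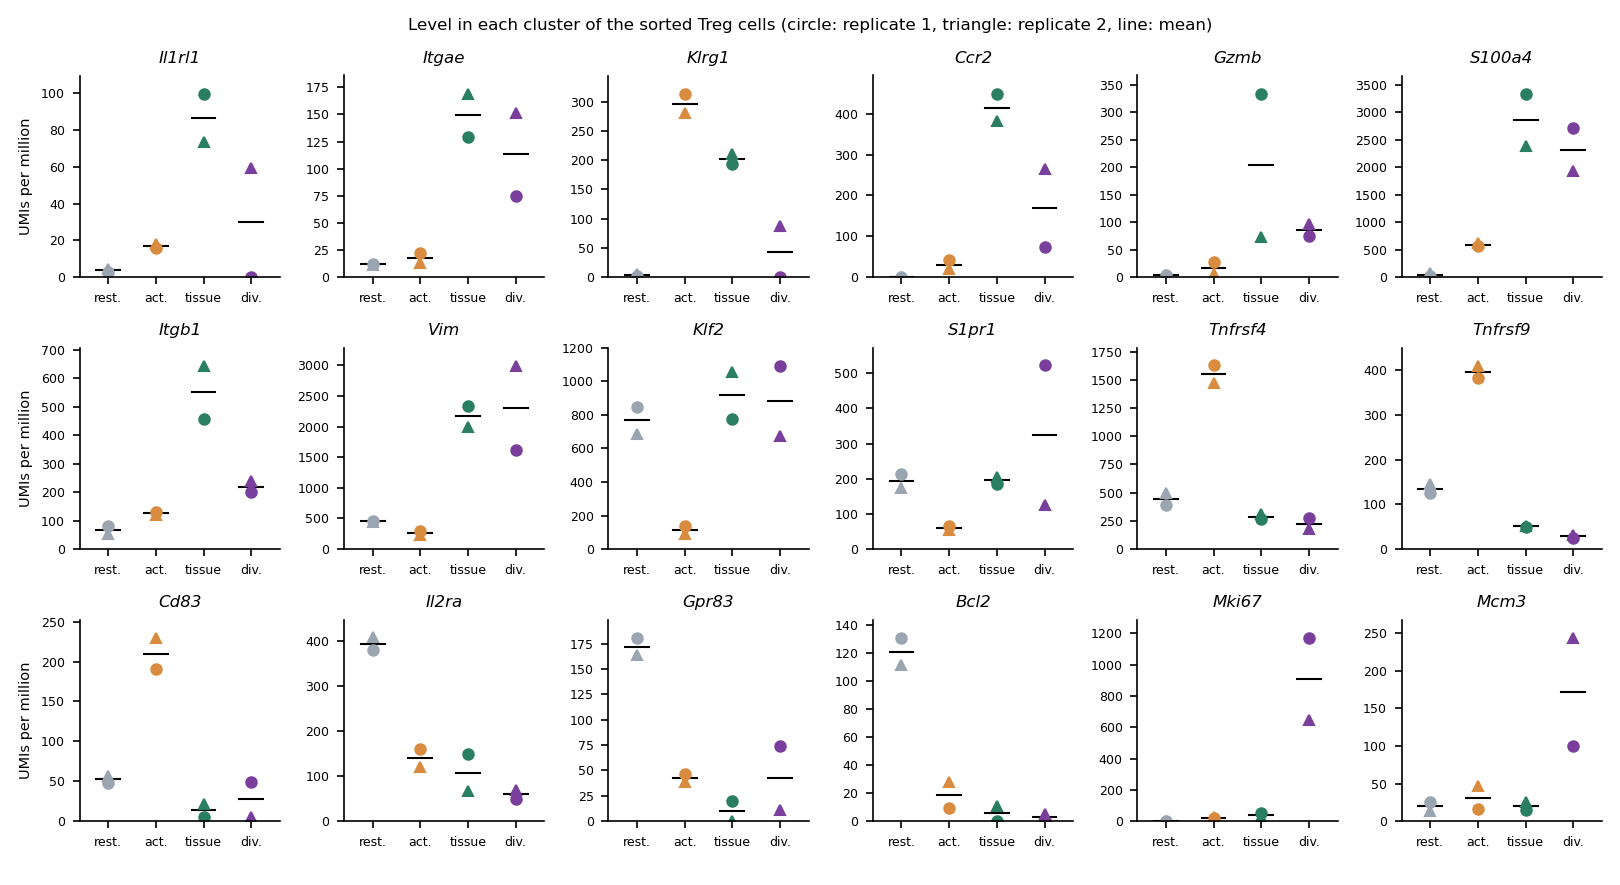
Level of selected genes in resting, activated, tissue-like and dividing sorted Treg cells, in CPM, with a linear axis from 0. Each point is 1 of the 2 samples (circle for replicate 1, triangle for replicate 2) and the line their mean. Ccr2, Il1rl1 and Itgae are highest in tissue-like cells, and Mki67 in dividing cells.

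A further group of genes higher in tissue-like cells codes for calcium-binding S100 proteins, galectins and the cytoskeleton. Of 14 genes of an activated and effector T cell list, all of which passed the filter, 13 were higher than in resting cells and 0 lower, with a median log2 difference of 2.54. Against activated cells 11 were higher and 1 lower, with a median of 2.15. S100a4 was at 3333 and 2387 CPM in tissue-like, 572 and 613 in activated and 18.0 and 68.4 in resting cells, and S100a6 at 5667 and 4318, 710 and 966, and 76.6 and 73.0. Relative to activated cells the log2 difference was 2.27 ± 0.19 for S100a4 and 2.59 ± 0.17 for S100a6.

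Lgals3, the galectin-3 gene, had 3 UMIs in all resting cells, 3.13 and 18.0 CPM in activated and 219 and 239 in tissue-like cells. The ratio to resting cells was 84.9 (95% counting interval 28.3 to 418). Lgals1, the galectin-1 gene, was at 2393 and 2004 in tissue-like, 400 and 484 in activated and 219 and 274 in resting cells. Both galectins were therefore above activated cells as well, by 3.73 ± 0.56 and 2.33 on the log2 scale. Lgals3 was not called against activated cells without the cells that hold markers of other cell types, which are 47.1% and 66.7% of the tissue-like cells.

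Vim, the gene of the intermediate filament vimentin, was at 2338 and 1997 CPM in tissue-like cells, above 288 and 234 in activated and 461 and 445 in resting cells. Crip1, a LIM domain gene, was at 4527 and 3420, 491 and 546, and 827 and 698. Itgb1, the integrin β1 chain, was at 458 and 644, 131 and 121, and 81.1 and 52.4. All 3 were higher in tissue-like cells than in either reference cluster, and Vim and Crip1 were lowest in activated cells. Pdcd1, which encodes the inhibitory receptor PD-1, was the lower member against activated cells, at 19.9 and 40.5 against 119 and 134.

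Gzmb, the granzyme B gene, differed between the samples. It was at 333 and 73.6 CPM in tissue-like, 28.1 and 5.15 in activated and 4.50 and 4.56 in resting cells. The log2 difference from resting cells was 4.18 ± 0.76, and the gene was not called without the cells that hold markers of other cell types. That setting leaves out 47.1% and 66.7% of the tissue-like cells. Its markers include the cytotoxic genes Nkg7, Gzma and Prf1, so it may remove Gzmb-holding cells for that reason. Glrx, which encodes the redox enzyme glutaredoxin, was at 592 and 603 in tissue-like, 178 and 221 in activated and 25.5 and 47.9 in resting cells.

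Genes that hold T cells in a resting, recirculating state split into groups. Of 13 genes of a naive and resting T cell list, 12 passed the filter, and 6 were lower and 0 higher in tissue-like than in resting cells, with a median log2 difference of -1.07. Against activated cells 3 were higher and 0 lower, with a median of 0.55. Ccr7 was at 24.9 and 29.4 CPM in tissue-like cells and 167 and 210 in resting cells. Satb1, a chromatin organizer of T cells, was at 34.8 and 51.5 against 158 and 207. Bach2, a repressor of effector genes, was at 9.95 and 0 against 66.1 and 59.3. These factors were thus lower in tissue-like cells, as they were in activated cells, where Ccr7 stood at 15.6 and 61.8 and Satb1 at 28.1 and 38.6.

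Klf2 and S1pr1 behaved otherwise. Klf2 encodes the factor that keeps the exit receptor S1PR1 (S1pr1) expressed in recirculating T cells. Klf2 was at 776 and 1055 CPM in tissue-like, 847 and 689 in resting and 138 and 92.7 in activated cells. S1pr1 was at 184 and 206, 213 and 173, and 65.6 and 54.1. Both were among the members higher than in activated cells, by 2.98 ± 0.24 and 1.65 ± 0.32 on the log2 scale, and their levels lay within 2-fold of resting cells in both samples.

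Bcl2, the survival gene, had 3 UMIs in tissue-like cells, at 0 and 11 CPM, against 131 and 112 in resting cells. It was 19.4-fold lower (95% counting interval 6.50 to 95.3). In activated cells it was at 9.38 and 28.3. Lta, Nsg2 and Treml2 were further genes with the largest decreases against resting cells: Lta, which encodes lymphotoxin α, was at 4.97 and 7.36 against 85.6 and 68.4.

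The list of 14 genes that characterize Treg cells at large did not move as a block. Against resting cells 1 was higher and 5 lower in tissue-like cells, with a median log2 difference of -0.56, and against activated cells 1 was higher and 6 lower, with a median of -1.05. Il2ra, which encodes CD25, the α chain of the IL-2 receptor, was at 149 and 66.2 CPM in tissue-like, 159 and 121 in activated and 380 and 408 in resting cells. Lrrc32, which encodes GARP, the anchor of latent TGF-β, was at 34.8 and 14.7, 81.3 and 67.0, and 192 and 157. Gpr83 was at 19.9 and 0, 46.9 and 38.6, and 180 and 164. These were highest in resting cells and low in both non-resting clusters.

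The TNF receptor family genes and Ctla4 were highest in activated cells. Tnfrsf4, which encodes OX40, was at 269 and 309 CPM in tissue-like, 1628 and 1468 in activated and 395 and 495 in resting cells, a log2 difference of -2.37 ± 0.19 from activated cells. Ctla4, the inhibitory receptor that removes CD80 and CD86 from other cells, was at 254 and 302, 628 and 749, and 150 and 217. Ikzf2, which encodes Helios, was at 652 and 695, 872 and 804, and 404 and 401, and was called in neither comparison. Capg, an actin-capping protein gene, was the list's higher member against resting cells, at 811 and 750 against 288 and 312.

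Further genes below activated cells were Cd83, Tbc1d4 and Penk. Cd83, a surface molecule induced by activation, was at 4.97 and 22.1 CPM in tissue-like and 191 and 229 in activated cells. Penk, the gene of the opioid peptide precursor proenkephalin, was at 59.4 and 95.3 in activated cells and had no UMI in tissue-like cells, at least 12.5-fold lower. Tbc1d4, a regulator of vesicle traffic, was at 9.95 and 11 in tissue-like against 159 and 157 in activated cells. All 3 were lower in both tissue-like sums than in both activated sums.

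Among 14 homing receptor genes, 9 passed the filter, and 3 were higher and 0 lower than in resting cells, with a median log2 difference of 0.91, and likewise 3 and 0 against activated cells, with a median of 0.14. Only 7 pass without the tissue-like sums, so the count describes the cluster and is no support. Ccr4, known for skin homing, was at 74.6 and 84.6 CPM in tissue-like, 25.0 and 25.8 in activated and 6.01 and 6.84 in resting cells. Ccr10, the receptor for the epithelial chemokines CCL27 and CCL28, was at 29.9 and 18.4 and had no UMI in the other 2 clusters, at least 8.56-fold higher than in resting cells and at least 5.49-fold higher than in activated cells. Both genes were higher than in either reference cluster. Itgb7, the partner chain of Itgae, was at 761 and 732 in tissue-like, 317 and 310 in resting and 319 and 373 in activated cells.

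Of 10 genes of IL-2 and STAT5 signalling, 2 were lower and 0 higher than in resting cells, with a median log2 difference of -0.52, and none was called against activated cells. Socs1, the feedback inhibitor of cytokine receptors, was at 54.7 and 51.5 CPM in tissue-like and 266 and 182 in resting cells. Cell cycle genes stayed low in tissue-like cells: of 25 genes of G2 and M phase, 2 were higher than in resting cells, with a median of 0.21, and of 11 G1/S genes that passed, 0 were higher and 1 lower. Of 11 glycolysis genes that passed, none was called, with a median of 0.35.

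B cell markers, taken as a sum, moved with the clusters. Their summed level was 731 and 816 CPM in tissue-like, 644 and 659 in activated and 243 and 340 in resting cells, with 5 of 10 markers detected in each tissue-like sum, and Ms4a1, Cd79a and Ebf1 at 0 there. Most of the tissue-like level was Ighm and Cd74, whose values follow in the comparison between sorts. Myeloid markers summed to 164 and 184 in tissue-like and 97.6 and 130 in resting cells, with Csf1r at 0 in both tissue-like sums. CD8 T and NK cell markers summed to 34.8 and 51.5 in tissue-like cells with Cd8a at 0, and those of NKT cells, γδ T cells and ILC2 to 0. The part of these RNAs in the differences was not tested.

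Dividing cells were set apart by the machinery of DNA replication and mitosis, on top of a gene profile that shared S100 and galectin genes with tissue-like cells. Of 5484 genes, 337 (6.15%) were higher in dividing than in resting cells and 299 (5.45%) lower, and 430 against 206 on plain library size. Against activated cells, 298 (5.43%) were higher and 269 (4.91%) lower, and 288 against 290 on plain library size. With each cell thinned to 2000 UMIs the splits turned to 151 higher against 1011 lower and to 166 against 1002. The dividing sums rest on 5 and 12 cells, and with 1 sample left out the calls rest on the other sample alone.

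All 25 genes of the G2 and M phase list were higher in dividing cells than in resting and than in activated cells. The median log2 difference was 4.68 over resting and 4.39 over activated cells, and 4.74 and 4.49 with genes without a UMI in the reference set at their lower bound. Only 3 of the 25 would have passed the filter on low levels without the dividing sums, so the count describes the cluster and carries no further weight. Mki67 (chromosome 7, 135689784 to 135716361, minus strand) was at 1168 and 650 CPM in dividing, 49.8 and 25.7 in tissue-like and 18.8 and 28.3 in activated cells, with 1 UMI in resting cells. It had a UMI in 94.1% of the 17 dividing cells, 16.4% of tissue-like, 9.15% of activated and 0.469% of resting cells, and in 0.862% of the resting Tconv cells. With each cell thinned to 2000 UMIs the shares of the 4 Treg clusters were 76.5%, 1.37%, 4.23% and 0.469%, and tissue-like cells no longer stood above activated cells.

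Top2a (chromosome 11, 98992943 to 99024189, minus strand), the topoisomerase that untangles sister chromatids, was at 1416 and 1023 CPM in dividing, 14.9 and 22.1 in tissue-like, 12.5 and 33.5 in activated and 9.01 and 22.8 in resting cells. The log2 difference was 5.57 ± 0.42 from resting and 5.21 ± 0.41 from activated cells. Cdk1, the kinase that starts mitosis, was at 124 and 255 in dividing cells, and had 1 UMI in resting, 4 in activated and 1 in tissue-like cells. Ccnb2, the gene of its partner cyclin B2, was at 596 and 368 in dividing cells and had no UMI in activated cells, at least 96.6-fold higher. The other 3 clusters thus held few UMIs of the kinase and its cyclin.

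Ube2c and Cdc20 act with the anaphase-promoting complex, which marks cyclins for destruction to end mitosis. Ube2c was at 870 and 677 CPM in dividing, 59.7 and 36.8 in tissue-like, 9.38 and 5.15 in activated and 7.51 and 2.28 in resting cells. It was 1 of the 2 members of the list that were also higher in tissue-like than in resting cells, with Mki67. Cdc20 was at 273 and 97.5 in dividing cells and had at most 4 UMIs in any other cluster. Birc5, which encodes survivin of the chromosomal passenger complex, was at 621 and 677 in dividing cells, 236-fold above the 2 UMIs in activated cells (95% counting interval 64.3 to 1968).

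Genes of this kind are known to be held off outside G2 and M phase by a complex that reads the motif TTTGAA, the cell cycle genes homology region (CHR). The CHR often lies beside boxes bound by NF-Y with the letters CCAAT, whereas G1/S genes carry E2F sites. The 100 bases before the RefSeq gene starts (GRCm38.p6) are shown 5′ to 3′ in the gene's direction. They are given for 6 G2/M genes, all higher in dividing cells, and for 1 G1/S gene with an E2F site. That gene, Mcm6, was called in neither comparison. Capitals mark the CHR, the NF-Y box and 2 forms of the E2F site, which are TTTCCCGC or, as the other form, TTTGGCGC, on either strand.
Top2a, chr11:99024190-99024289, minus strand: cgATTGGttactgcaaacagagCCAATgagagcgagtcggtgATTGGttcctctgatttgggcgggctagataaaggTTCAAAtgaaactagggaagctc
Ube2c, chr2:164769829-164769928, plus strand: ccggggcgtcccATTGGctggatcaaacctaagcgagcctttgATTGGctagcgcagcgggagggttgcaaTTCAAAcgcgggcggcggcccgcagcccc
Cdk1, chr10:69352913-69353012, minus strand: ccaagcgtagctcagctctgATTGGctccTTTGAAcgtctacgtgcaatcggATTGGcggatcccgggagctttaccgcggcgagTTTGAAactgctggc
Cdc20, chr4:118437344-118437443, minus strand: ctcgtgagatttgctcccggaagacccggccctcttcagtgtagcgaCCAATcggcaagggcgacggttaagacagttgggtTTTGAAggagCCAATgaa
Ccnb2, chr9:70421555-70421654, minus strand: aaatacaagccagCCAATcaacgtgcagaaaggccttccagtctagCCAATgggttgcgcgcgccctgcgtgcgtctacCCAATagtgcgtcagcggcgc
Mki67, chr7:135716380-135716479, minus strand: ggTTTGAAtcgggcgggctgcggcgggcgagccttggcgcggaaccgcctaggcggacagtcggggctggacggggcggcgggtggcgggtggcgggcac
Mcm6 (G1/S), chr1:128359706-128359805, minus strand: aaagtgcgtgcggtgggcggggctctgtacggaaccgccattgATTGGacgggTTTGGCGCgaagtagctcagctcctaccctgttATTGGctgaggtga
A RefSeq start was matched for 22 of the 25 G2/M genes, with 23 starts. The CHR lay before 8 of these starts (34.8%), the NF-Y box before 18 (78.3%), both before 7 (30.4%) and an E2F form before none. Among all 32851 starts of the table the shares were 5.77%, 18.9%, 1.06% and 0.584%. Of 19 starts of 17 G1/S genes, 1 held the CHR (5.26%), 11 the NF-Y box (57.9%) and 4 an E2F form (21.1%), those of Cdca7, Dtl, Hells and Mcm6. Of 25 starts of 21 tissue Treg genes, 1 held the CHR (4.0%), 8 the NF-Y box (32.0%) and none an E2F form. A match is a run of letters in this window and shows no binding.

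Some DNA replication genes were higher as well. Of 20 G1/S genes, 11 passed the filter, and 7 were higher and 0 lower in dividing than in resting cells, with a median log2 difference of 2.03. Against activated cells 6 were higher and 0 lower, with a median of 1.91. Only 7 pass without the dividing sums, so that members which passed only where they are high are among these counts. Mcm3, a subunit of the replicative helicase, was at 99.4 and 244 CPM in dividing, 14.9 and 25.7 in tissue-like, 15.6 and 46.4 in activated and 25.5 and 13.7 in resting cells. Pcna, the sliding clamp of DNA polymerase, was at 49.7 and 233 in dividing and 42.0 and 38.8 in resting cells. It was high in replicate 2 only and was called in neither comparison, and the same held for Mcm6, at 49.7 and 211 against 21.0 and 45.6.

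Genes that make DNA precursors were higher in dividing cells. Of 15 genes, 13 passed the filter, and the 5 genes that were higher than in resting cells were also the 5 higher than in activated cells, with 0 lower and medians of 0.50 and 0.57. They were Tyms, Rrm1, Rrm2, Tk1 and Dut. Only 9 of the list pass without the dividing sums, so these counts too hold members that passed only where they are high. Rrm2, the cell cycle subunit of ribonucleotide reductase, was at 497 and 325 CPM in dividing, 9.95 and 0 in tissue-like, 6.25 and 5.15 in activated and 6.01 and 4.56 in resting cells. Tyms, the thymidylate synthase gene, was at 149 and 211 in dividing and 12.0 and 9.12 in resting cells. The other 8 that passed, among them the purine synthesis genes Paics, Gart and Ppat, were not called.

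All 12 genes of chromatin and tubulin were higher in dividing cells than in either reference cluster, with medians of 2.29 and 2.78, though Ran turned to -0.014 against activated cells when each cell was thinned to 2000 UMIs. Stmn1, the tubulin-binding protein stathmin, was at 1839 and 1868 CPM in dividing, 29.9 and 40.5 in tissue-like, 18.8 and 15.5 in activated and 9.01 and 11.4 in resting cells. Hmgb2, a chromatin protein of cycling cells, was at 5914 and 5328, 522 and 625, 281 and 384, and 237 and 201. Hist1h2ap, a replication-dependent histone gene whose near-identical copies share reads, was at 2982 and 2009 in dividing and 18.8 and 5.15 in activated cells, and its level is uncertain for that reason. All 3 separated the dividing sums from each of the other 6 sums.

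Regulators of the cycle went both ways. Of 13 genes 10 passed the filter, with 2 higher and 2 lower than in resting cells and 4 higher and 1 lower than in activated cells. Ccnd2, the D-type cyclin of the G1 phase, was lower in dividing cells, at 149 and 125 CPM against 322 and 309 in activated and 384 and 369 in resting cells. Cdkn2c, which encodes the CDK4 and CDK6 inhibitor p18, was at 273 and 179 in dividing, 59.7 and 62.5 in tissue-like, 34.4 and 36.1 in activated and 6.01 and 9.12 in resting cells. The transcription factor gene E2f2 was at 248 and 86.6 in dividing, 49.8 and 55.2 in tissue-like and 12.5 and 5.15 in activated cells. Cdkn2c and E2f2 were also called higher in tissue-like than in resting cells.

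The 17 cells differed among themselves in their place in the cycle. UMIs of the 25 G2/M genes made up a median of 0.889% of a dividing cell's UMIs in replicate 1 (0.553 to 1.35%) and 0.405% in replicate 2 (0.0539 to 1.45%). In the sums of the other 3 clusters they were 0.00796 to 0.0213%. All 5 cells of replicate 1 and 10 of the 12 cells of replicate 2 held 10 or more such UMIs, and no cell of the other 3 clusters did. UMIs of the 20 G1/S genes outnumbered those of G2/M in 0 of 5 and 5 of 12 dividing cells, and in sum they were 0.114% and 0.244% of all UMIs. Replicate 2 therefore held dividing cells with more G1/S than G2/M RNA and replicate 1 held none.

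**Figure D3:**
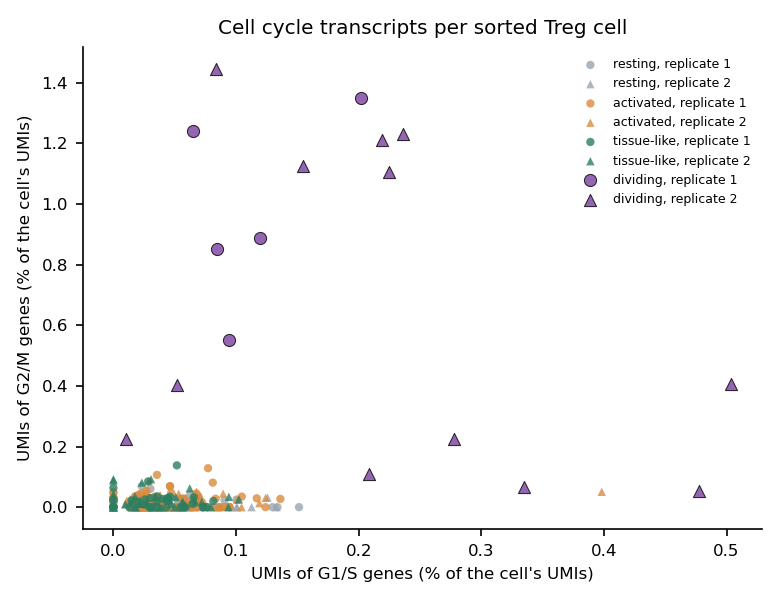
UMIs of G1/S genes (x axis) and of G2/M genes (y axis) as a percent of each sorted Treg cell's UMIs; each point is 1 cell, coloured by cluster, with circles for replicate 1 and triangles for replicate 2. The dividing cells spread from 0.0539 to 1.45% on the G2/M axis, and no cell of the other 3 clusters exceeds 0.138% there, while 1 activated cell of replicate 2 reaches 0.398% on the G1/S axis.

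The dividing cells carried tissue-like genes unevenly. Of the 17 cells, 7 held a UMI of Itgae, 8 of Ccr2, 4 of Il1rl1 and 4 of Klrg1. Itgae was at 74.5 and 152 CPM and higher than in activated cells by 2.57 ± 0.52 on the log2 scale, as in tissue-like cells. In replicate 1 its 3 UMIs all came from 1 of the 5 dividing cells, so the call in that sample rests on this cell. Ccr2 was at 74.5 and 265 against 0 in resting cells, at least 85.1-fold higher. Il1rl1 was at 0 and 59.6 and Klrg1 at 0 and 86.6, with all UMIs in replicate 2. The 0 in replicate 1, a sum of 5 cells, allows a level of up to 74.5 CPM. That lies above the Il1rl1 level of replicate 2 and near its Klrg1 level, so these zeros do not show a difference between the samples. Of the 16 tissue Treg genes that passed the filter, 7 were higher and 1 lower than in resting cells, with a median of 2.10, and 1 was higher and 5 lower than in activated cells, with a median of -0.33.

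Summed over cells, S100 and galectin genes were at levels near those of tissue-like cells. Of the 14 activated and effector genes, 10 were higher and 0 lower than in resting cells, with a median of 2.43, and 8 were higher and 1 lower than in activated cells, with a median of 1.70. S100a6 was at 3056 and 3238 CPM, against 5667 and 4318 in tissue-like cells, and Lgals1 at 2609 and 3184. A UMI of S100a6 was seen in 3 of the 5 dividing cells of replicate 1 and in 11 of the 12 of replicate 2. Anxa2, the annexin A2 gene, was at 224 and 520 in dividing, 169 and 217 in tissue-like, 25.0 and 48.9 in activated and 39.0 and 34.2 in resting cells. Klf2 was at 1093 and 671 and thus, as in tissue-like cells, above the 138 and 92.7 of activated cells.

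No member of the Treg list was higher in dividing cells than in resting or in activated cells, while 5 and 6 of 14 were lower, with medians of -1.10 and -0.97. Tnfrsf4 was at 273 and 179 CPM against 1628 and 1468 in activated cells, and Tnfrsf18, which encodes GITR, at 99.4 and 244 against 797 and 907. Il2ra was at 49.7 and 70.4 against 380 and 408 in resting cells. Ikzf2, at 919 and 606, was called in neither comparison. Tnfrsf4 and Tnfrsf18 were therefore below the activated cluster in both samples, and Helios RNA was present in both samples.

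Some genes of IL-2 signalling and of the naive list were lower. Of the 10 IL-2 and STAT5 genes, 4 were lower and 0 higher than in resting cells, with a median of -0.87, and 3 and 0 against activated cells, with a median of -0.54. Cish, a STAT5 target, was at 0 and 16.2 CPM against 94.6 and 123 in resting and 128 and 72.1 in activated cells, and Il2rb, the receptor's β chain, at 99.4 and 75.8 against 161 and 196, and 225 and 219. Of 12 naive genes, 5 were lower and 0 higher than in resting cells, with a median of -1.39, while 3 were higher and 1 lower than in activated cells, with a median of 0.13. Bcl2 had 1 UMI in dividing cells, 27.7-fold below resting cells (95% counting interval 4.89 to 1102).

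Further genes with large decreases in dividing cells had mixed roles. Ccl5, a chemokine, was at 203 and 250 CPM in activated cells and had 1 UMI in dividing cells, a ratio of 51.5 (95% counting interval 9.10 to 2044). Evl, an actin regulator, was at 0 and 27.1 in dividing against 287 and 228 in resting and 113 and 134 in activated cells. Rcn1, Ms4a4c, Fam26f and Gsta4 had no UMI in dividing cells, at least 4.68, 5.43, 3.67 and 5.29-fold lower than in resting cells. Penk had none either and was at least 5.93-fold lower than in activated cells.

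Markers of other cell types in dividing cells differed between the samples. CD8 T and NK cell markers summed to 472 CPM in replicate 1 and 54.2 in replicate 2, against 31.3 to 134 in the other 6 sums. In replicate 1 most of this was Nkg7, at 398, a gene of cytotoxic granules, and Cd8a was at 0 in both. B cell markers summed to 745 and 260, with Ms4a1 and Ebf1 at 0. The part of these RNAs, and of the higher doublet scores given above, was not tested.

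The authors' tissue-like and dividing clusters also hold cells of the GFP- sort and of unsorted mice, under Tconv annotations. This gives a comparison that the clustering does not fix in advance, and it was added after the data were seen. The GFP sort defines its groups, however. Genes of the Treg list may therefore differ through that choice, and their calls are no separate support. Tissue-like cells were 2.49% and 6.08% of sorted Tconv cells, 9 cells in each sample. The mean was 13.6% ± 4.67 (SD, n = 2) in sorted Treg and 4.28% ± 2.54 in sorted Tconv samples, a difference of 9.29 points (exact two-sided permutation p = 0.333, the smallest that 2 against 2 samples allow). Dividing cells were 5 and 2 cells of sorted Tconv, 1.38% and 1.35%. The Treg mean of 3.35% ± 2.61 (SD, n = 2) exceeded the Tconv mean of 1.37% ± 0.0211 by 1.99 points (exact permutation p = 0.333), and by 0.144 points without Treg replicate 2. The groups did not overlap in either share, but the difference for dividing cells came from replicate 2.

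Without the annotation, the share of cells with 2 or more UMIs of the G2/M list, after thinning every cell to 2000 UMIs, was 4.53% and 8.23% in sorted Treg and 1.38% and 4.05% in sorted Tconv samples. The difference of 3.66 points had an exact permutation p of 0.333. No cell was shallower than the thinning depth. Without thinning the shares were 12.7% and 22.9% against 4.70% and 14.9% and overlapped, with an exact permutation p of 0.667.

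**Figure D4:**
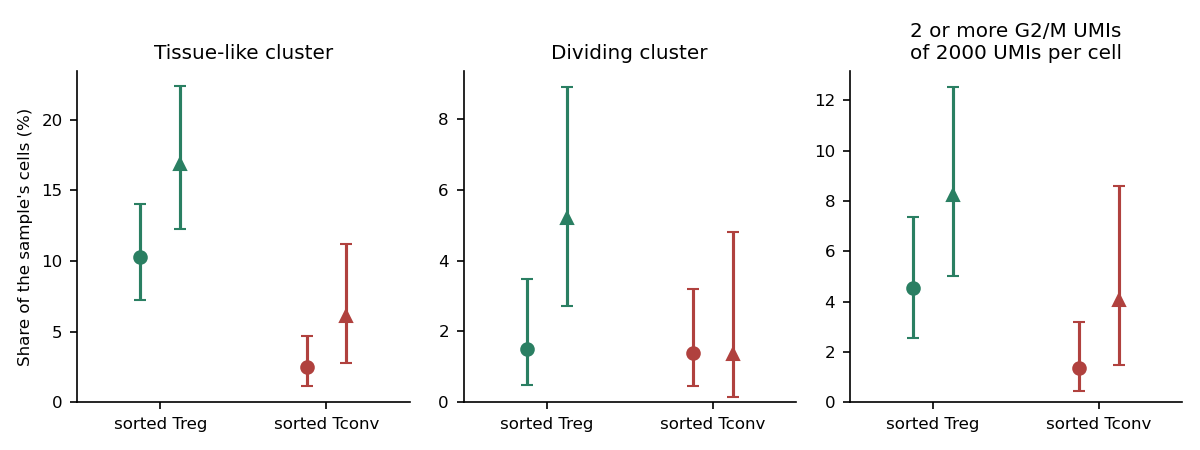
Share of each sample's cells, in percent from 0, in the authors' tissue-like and dividing clusters, and with 2 or more G2/M UMIs after thinning. Sorted Treg and sorted Tconv samples are shown, with circles for replicate 1 and triangles for replicate 2. Bars are exact 95% binomial intervals, which cover counting error only. Each Treg point lies above both Tconv points in the 3 panels, with Treg replicate 1 close to Tconv in the dividing panel.

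Within the tissue-like cluster, sorted Treg cells were higher than sorted Tconv cells in 54 of 5626 genes (0.96%) and lower in 25 (0.444%), by edgeR's quasi-likelihood test at an adjusted p under 0.05. Genes of the Treg list, S100 genes and Tcf7 were among those called, next to genes of other kinds. The Tconv sums rest on 18 cells and 96493 UMIs. Without Tconv replicate 1 the count was 28 in all, and 13 genes, 10 higher and 3 lower, were called under each of the 9 settings run. Those 13 were Capg, Ifi27l2a, Ighm, Ikzf2, Itm2b, Ly6e, Rps27, Rps29, S100a10, S100a4, Srgn, Tcf7 and Tpr.

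Ikzf2 was at 652 and 695 CPM in tissue-like Treg cells and at 41.7 and 20.6 in tissue-like Tconv cells, with 3 UMIs in the latter, a ratio of 21.8 (95% counting interval 7.38 to 106; edgeR adjusted p = 0.000125). Capg was at 811 and 750 against 41.7 and 185, a log2 fold change of 2.75 ± 0.51 (edgeR adjusted p = 7.03e-06). Neither gene's groups overlapped. Among 10 testable genes of the Treg list, Treg cells were higher in 5 and lower in 0, with a median of 1.81, or 1.71 with genes without a Tconv UMI at their bound, against 0.10 over all genes. Among them Tnfrsf4 was at 269 and 309 against 20.9 and 82.4 (2.39 ± 0.73, edgeR adjusted p = 0.00732). The call was lost without Tconv replicate 1 (adjusted p = 0.283).

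S100a4 was at 3333 and 2387 CPM in tissue-like Treg and 584 and 1071 in tissue-like Tconv cells, a log2 difference of 1.83 ± 0.24 (edgeR adjusted p = 1.38e-06), and S100a10 at 4388 and 4538 against 980 and 1895 (1.69 ± 0.24, edgeR adjusted p = 5.84e-06). Over the 14 activated and effector genes, 7 were higher and 1 lower in Treg cells, with a median of 1.07. The lower one was Itgb1, at 458 and 644 against 772 and 1710 (-1.09 ± 0.24, edgeR adjusted p = 0.00659). Without Tconv replicate 2 that difference was -0.39 and was not called (adjusted p = 0.636), nor was it without Treg replicate 1 (adjusted p = 0.151). The S100 genes were thus higher in both GFP+ samples of the cluster than in both GFP- samples, and Itgb1 lower.

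Of the tissue markers, Itgae and Klrg1 had no UMI in tissue-like Tconv cells. Itgae was at 129 and 169 CPM in Treg cells, at least 4.90-fold higher (edgeR adjusted p = 0.0050), and Klrg1 at 194 and 210, at least 6.53-fold higher (edgeR adjusted p = 0.0115). Both calls were lost without either Tconv replicate, with adjusted p from 0.075 to 0.187, and DESeq2 gave no adjusted p for either gene. Il1rl1, at 99.5 and 73.6 against 0 and 0, was not called (edgeR adjusted p = 0.0946). Ccr2 was at 448 and 382 against 0 and 124 (2.65 ± 0.72, edgeR adjusted p = 0.00186), with an adjusted p of 0.161 without Tconv replicate 1. Among 17 testable tissue Treg genes 3 were higher and 1 lower, with a median of 1.10, or 0.71 with genes without a Tconv UMI at their bound. The lower one was Id2, an inhibitor of E proteins, at 74.6 and 140 against 229 and 659 (-1.89 ± 0.45, edgeR adjusted p = 0.0149; 0.615 without Tconv replicate 2, and not called without Treg replicate 1 either).

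Tcf7, which encodes the naive and memory T cell factor TCF-1, was lower in Treg cells, at 74.6 and 40.5 CPM against 355 and 350, a log2 difference of -2.48 ± 0.45 (edgeR adjusted p = 0.000477). Ccr7 was at 24.9 and 29.4 against 125 and 618 (-3.42 ± 0.54, edgeR adjusted p = 5.84e-06), and its call was lost without Tconv replicate 2 (adjusted p = 0.301). These were the 2 naive genes called, out of 12. Klf2, at 776 and 1055 against 1443 and 1504, was not called (edgeR adjusted p = 0.090). Cd40lg, the helper ligand of conventional T cells, was at 14.9 and 11 against 62.6 and 144 (-2.46 ± 0.76, edgeR adjusted p = 0.0282), a call lost on leaving out any 1 of the 4 samples (adjusted p 0.072 to 0.542).

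The B cell genes Ighm and Cd74 were also higher in tissue-like Treg than in tissue-like Tconv cells. Ighm was at 547 and 493 CPM against 83.4 and 124 (2.30 ± 0.49, edgeR adjusted p = 0.000247). Cd74 was at 99.5 and 239 with 1 UMI in Tconv cells, a ratio of 17.3 (95% counting interval 3.03 to 693; edgeR adjusted p = 0.0258), which was not called without Treg replicate 2 or either Tconv replicate (adjusted p 0.14 to 0.339), and for which DESeq2 gave no adjusted p. Their part in the other differences was not tested.

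**Figure D5:**
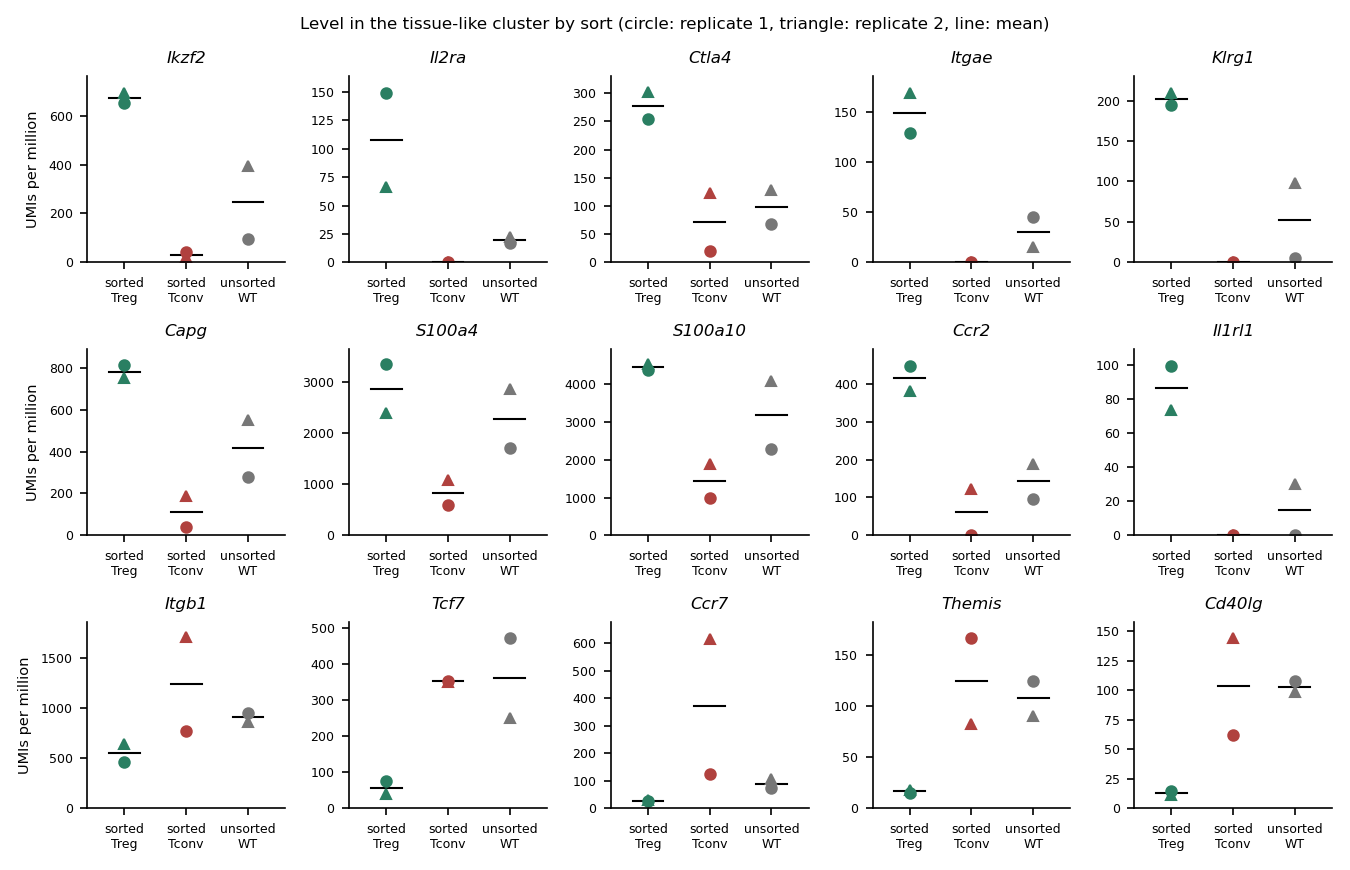
Level of genes in the authors' tissue-like cluster in sorted Treg, sorted Tconv and unsorted WT samples, in CPM with a linear axis from 0; circles are replicate 1, triangles replicate 2 and lines the mean. Ikzf2, Capg and S100a4 lie higher in both sorted Treg samples than in both sorted Tconv samples, and Tcf7 lower.

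Against tissue-like cells of unsorted WT samples, which hold 31 and 20 cells and can include Treg cells, 36 of 5626 genes (0.64%) were higher and 27 (0.48%) lower in sorted Treg cells by the same test. Without unsorted replicate 1 the count was 2, and without Treg replicate 1 or 2 it was 34 or 26. GFP or Foxp3 UMIs were seen in 3 of 31 and 6 of 20 of the unsorted cells, in 0 of 9 and 1 of 9 sorted Tconv cells, and in 11 of 34 and 25 of 39 sorted Treg cells of the cluster. Tcf7 was at 472 and 250 CPM in unsorted cells, a log2 difference of -2.64 ± 0.39 for sorted Treg cells (edgeR adjusted p = 2.19e-06), and was the only gene called under each setting. Ikzf2 was at 96.7 and 393 (1.52 ± 0.33, edgeR adjusted p = 0.00555). Of the 17 tissue Treg genes, 5 were higher and 1 lower, with a median of 0.78, and none of the 14 effector genes was called, with a median of 0.30.

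Between dividing Treg and dividing Tconv cells, edgeR called 0 of 2605 genes (0%) at an adjusted p under 0.05, while 238 had an unadjusted p under 0.05 and DESeq2 called 7. With the 10x channel, which same-numbered samples share, as a block, edgeR called 9, and without Tconv replicate 2 it called 7. The smallest edgeR adjusted p was 0.0955. The Tconv sums hold 5 and 2 cells and 45265 UMIs, so that differences of many genes were not detectable at this depth. Ikzf2 was at 919 and 606 CPM in dividing Treg cells and at 0 in both dividing Tconv sums, and Ctla4 at 323 and 287 against 0 and 0. Crip1 was at 4349 and 5626 against 968 and 1270 (2.14 ± 0.46, edgeR adjusted p = 0.0955). Mki67 was at 1168 and 650 against 0 and 1514 (0.30 ± 0.79, edgeR adjusted p = 0.952), so for this gene the 2 dividing Tconv sums lay on either side of both Treg sums.

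The annotations Treg_tissue-like and Treg_dividing occur in the GFP+ sort alone. Outside the sorts, the annotation Tconv_tissue-like had at least 20 cells in 10 V3 samples, which were the unsorted WT, ∆Foxp3 and chimera samples. There Ccr2 ran from 67.6 to 420 CPM with a median of 159, Klrg1 from 0 to 98.3 with a median of 42.5, Il1rl1 from 0 to 42.2 with a median of 23.9 and Itgae from 0 to 61.1 with a median of 13.9. The sorted tissue-like Treg levels of Klrg1, Il1rl1 and Itgae lay above each of these 10 samples, and the Ccr2 level of replicate 2, 382, lay within their range. In Treg_activated cells of 8 V3 samples Klrg1 ran from 3.43 to 135 with a median of 89.8. This range lay below its 281 and 313 in sorted activated cells. The 8 were the WT and ∆Foxp3 chimera samples and the ∆Foxp3 mice, the last at 3.43 and 5.54. No unsorted WT mouse sample had 20 such cells, so none of the 8 matched the sorted mice in strain, age and treatment.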

How the data were processed

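Splenic CD4 T cells were profiled with 10x Genomics 3′ kits. The authors deposited UMI counts of 33006 genes in 1 matrix. The submitters' processing notes name Cell Ranger 3.0.2 and the build mm10. The deposited Foxp3 counts of sorted Treg cells are sums of Foxp3 and GFP counts. Clusters, the mitochondrial percent, the doublet score (Scrublet, per the file headers) and the UMAP coordinates, unitless values treated as a score, are the authors' deposited values. Another 43 metadata columns were not used. No cell was removed. The matrix sum equals the deposited UMI number in 64.9% of sorted Treg cells and lies up to 6 UMIs under it elsewhere. Replicates differed by more than counting error (chi-square per degree of freedom 2.93).

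Counts were summed per sample and cluster and fitted with edgeR 4.0.16 under R 4.3.3 (TMM, prior count 2, cluster and replicate as terms) where the mean over the 8 sums was at least 20 CPM. Between sorts, the authors' tissue-like and dividing clusters of 14 V3 samples were tested with edgeR's quasi-likelihood test (filterByExpr, minimum count 10) and Benjamini-Hochberg adjustment over all genes fitted. DESeq2 1.42.0 was an alternative. CPM were computed here from each sum. The fits were tested on simulated data. Shares were compared with exact permutation tests. Other tools were matplotlib 3.10.9, pandas 2.3.3, scipy 1.17.1 and numpy 2.4.6, under Python 3.11.15.

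The members, the 22 gene lists (273 genes, 269 found under their symbol, 3 under an older one and 1 missing) and the tests were chosen with earlier results of these data known. Named genes were the markers and Foxp3, members of the lists, and per contrast the 8 highest and 6 lowest changes among genes past 2-fold in both samples with at least 50 CPM in the cluster where they are higher. Alternatives covered scaling, filters, prior count, tool, block, each replicate left out, thinning to 2000 UMIs, cell weights and cells with 2 or more markers of 1 other cell type. Ages and kits follow the labels. Some members of the lists are not reported here. The sources used here do not state whether counting used the strand, so reads of overlapping genes cannot be told apart.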

Additional observations from a re-analysis of the deposited data

How the results depend on the processing

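Counts of genes past 2-fold moved with the filter, the samples and the depth. In the order tissue-like against resting, tissue-like against activated, dividing against resting and dividing against activated, they were 604, 419, 1296 and 1180 with no filter on low counts (261 higher and 343 lower, 185 and 234, 415 and 881, 378 and 802), and 177, 116, 294 and 269 with a mean of at least 50 CPM. With 1 replicate left out, when 1 sample decides each call, they ranged from 818 to 840, 651 to 794, 1280 to 2091 and 1238 to 2016. With cells thinned to 2000 UMIs the dividing counts were 1162 (151 higher, 1011 lower) and 1168 (166 higher, 1002 lower), and the tissue-like splits 121 to 158 against resting and 83 to 122 against activated cells. Without cells holding other cell types' markers, which removed 21.9 to 80.0% of a sum's cells, the splits were 123 to 160, 91 to 156, 234 to 512 and 226 to 529, and the resting and activated shares 45.3% and 19.9%. Plain library size moved the median of all genes to 0.16 for tissue-like and 0.12 for dividing cells against resting cells. Without the replicate block the counts were 339, 217, 626 and 562. The 14 genes with the largest changes in each contrast kept their calls wherever they could be fitted, except Gzmb and Lgals3 without the marker-holding cells and Cd83 with thinned cells, and none reversed.

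Between sorts, tissue-like Treg against sorted Tconv gave 124 genes with no filter (103 higher, 21 lower) and 28 to 68 with 1 replicate left out, against unsorted WT 2 to 64, and dividing Treg against sorted Tconv 23 with no filter, 7 with DESeq2 and 0 to 7 with 1 replicate left out. With the 10x channel as a replicate block the 3 counts were 83, 65 and 9, and the shares did not move. Dapl1 against unsorted WT ranged from -4.36 to 0.41 with 1 replicate left out and reversed without unsorted replicate 1, and Mki67 between dividing sorts ranged from -0.47, without Tconv replicate 1, to 6.99. The third reversal was Ran, at -0.014 (dividing against activated, thinned). The cause was not tested. Depth limits the dividing sums most, since 1 UMI is 24.8 CPM in the smaller, and more so once cells are thinned.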

Other observations

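A pair of sterol synthesis genes was chosen after their values were seen, because they were higher in tissue-like than in activated cells. Idi1, the isopentenyl diphosphate isomerase gene, was at 69.7 and 91.9 CPM in tissue-like, 6.25 and 5.15 in activated and 34.5 and 38.8 in resting cells. Hmgcs1, the HMG-CoA synthase gene, was at 69.7 and 73.6, 9.38 and 18.0, and 25.5 and 20.5. The fitted log2 differences from activated cells were 2.84 ± 0.77 for Idi1 and 1.93 for Hmgcs1. Each was at least 2-fold higher in both samples.

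Likewise, 4 genes that act in ribosome assembly were chosen because they were lower in tissue-like than in resting cells, with no count over other genes of that kind. Nop56, a box C/D snoRNP gene, was at 29.9 and 36.8 CPM against 120 and 141, a log2 difference of -1.96. The differences were -1.84 for Nop58, -1.94 for Nolc1 and -1.97 for Gnl3, each at least 2-fold in both samples. Myc, a driver of these genes in growing cells, was at 4.97 and 11 in tissue-like, 0 and 21.7 in dividing, 43.8 and 41.2 in activated and 57.1 and 105 in resting cells.

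Zbtb32, a repressor gene chosen the same way, was at 84.6 and 29.4 CPM in tissue-like and 24.8 and 75.8 in dividing cells, with 2 UMIs in activated and 0 in resting cells. It was at least 19.5-fold and at least 24.6-fold higher than in resting cells.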
